A study of Mus musculus with 12 samples.

Results

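The genes described here are the expressed members of the mouse Zfp series, zinc finger genes whose symbol is Zfp followed by a number only. They were selected on measured values: a gene entered if its FPKM (fragments mapped to a gene, scaled to its length and to the depth of the library) was at least 5 in at least 3 of the 12 libraries. Zfp36 was left out by the rule and Zfp784 was named in it. Of 333 such symbols, 172 entered, among 24259 gene symbols in all and 7698 that reached the same level.

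The libraries came from fully grown GV-stage oocytes (arrested at the germinal vesicle stage) of 3-week-old mice, collected 46 h after 5 IU of PMSG, a gonadotropin. WT mice were compared with Lsm14b KO mice, which carry the tm1a allele, a knockout-first gene trap in every cell, on both copies of the gene for an RNA-binding protein. A lysate of about 1500 oocytes was run through a sucrose gradient of 28 fractions, in which fractions 1 to 10 were pooled as RNP (messenger ribonucleoprotein) and fractions 11 to 28 as polysome. Each genotype and pool had 3 libraries, amplified by Smart-seq2, which does not keep the strand. The labels do not say whether the 3 libraries of a group came from separate animals, so p-values measure the spread between these libraries, which may be technical.

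C2H2 zinc finger proteins bind DNA through repeated fingers, in each of which 2 cysteines and 2 histidines hold a zinc ion. Many also carry a KRAB box, which recruits the co-repressor TRIM28 and, through it, the histone methyltransferase SETDB1. KRAB zinc finger proteins are best known for silencing transposable elements. In the oocyte, ZFP57 is known for a different task, since its maternal supply helps to keep DNA methylation at imprinted regions in the embryo. GV oocytes are transcriptionally quiet, so a large part of their regulation acts on stored mRNA.

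A coding sequence was read for 171 of the 172 genes from GENCODE transcripts. A KRAB box was found in 97 proteins and none in 74. The median number of fingers was 12 with a KRAB box and 6 without, and the highest was 36. No finger of the searched form was found in 6 genes: Zfp330, Zfp703, Zfp750, Zfp839, Zfp935 and Zfp957. The first finger of 4 genes on which the results turn is shown on the GRCm38 build, with the codons of the zinc-binding cysteines and histidines in capitals.
Zfp784, chr7:5036300-5036362, minus strand: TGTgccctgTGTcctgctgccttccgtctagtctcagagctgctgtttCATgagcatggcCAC
Zfp3, chr11:70771628-70771690, plus strand: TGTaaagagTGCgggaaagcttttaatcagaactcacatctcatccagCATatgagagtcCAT
Zfp57, chr17:37009679-37009741, plus strand: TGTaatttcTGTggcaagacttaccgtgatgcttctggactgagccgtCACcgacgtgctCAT
Zfp7, chr15:76890339-76890401, plus strand: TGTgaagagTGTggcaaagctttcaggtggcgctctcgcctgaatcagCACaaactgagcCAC

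Each of these fingers is 63 bases long. A stretch of 123 bases is shown at the KRAB box of Zfp7 and of Zfp869, KRAB genes whose levels differ between pools and genotypes in the results. Each stretch lies within 1 exon and has no capitals. Its length is fixed and it may be shifted by 1 codon, so its ends are not the exact ends of the box.
Zfp7, chr15:76881112-76881234, plus strand: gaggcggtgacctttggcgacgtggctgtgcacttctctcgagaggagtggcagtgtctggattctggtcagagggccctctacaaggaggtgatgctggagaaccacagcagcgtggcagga
Zfp869, chr8:69708340-69708462, minus strand: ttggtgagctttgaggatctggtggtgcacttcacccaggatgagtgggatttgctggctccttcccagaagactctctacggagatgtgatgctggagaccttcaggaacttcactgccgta

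Near-identical copies limit how reads can be assigned. Zfp97 and Zfp960 lie next to each other on chromosome 17, and the 150 coding bases from the first finger of each differ at 1 position, in capitals.
Zfp97, chr17:17144718-17144867, plus strand: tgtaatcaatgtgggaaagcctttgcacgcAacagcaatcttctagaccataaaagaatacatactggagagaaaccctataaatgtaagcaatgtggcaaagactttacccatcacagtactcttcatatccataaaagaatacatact
Zfp960, chr17:17087503-17087652, plus strand: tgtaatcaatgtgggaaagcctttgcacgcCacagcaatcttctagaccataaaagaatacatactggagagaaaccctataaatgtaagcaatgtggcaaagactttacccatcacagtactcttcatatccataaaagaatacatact
Over 20% of the transcript's 100-base stretches recur in another gene for Zfp97, Zfp960, Zfp433 and Zfp932, whose values are uncertain for that reason. The annotated span of another gene, introns included, overlaps that of 79 of the 172 genes. Only where exons of such a pair overlap can reads not be told apart without strand. In how many pairs exons overlap was not examined.

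The steps between low FPKM values gave an estimated depth of 4820000 to 7720000 fragments per library. Lsm14b was at 11.3 to 34.6 FPKM in the 6 WT libraries and at 0 to 0.893 in the 6 KO libraries, so the libraries matched their genotype labels. All 13 oocyte markers were detected in each group, and their summed level was higher in polysome (24254 to 25780 in WT, 29585 to 32393 in KO) than in RNP (7804 to 8164 in WT, 10935 to 11209 in KO). The 10 granulosa and cumulus cell markers summed to 27.2 to 75.5, 81.4 to 103, 31.3 to 35.3 and 43.2 to 64.7 in the same order, so they were higher in KO than in WT in both pools; their part in the results was not tested. The 5 theca and stroma markers summed to at most 2.58, the leukocyte markers to at most 8.71 and the endothelial markers to at most 41, and the 3 red cell genes were listed at 0. Gapdh and Ppia, looked at after the values were seen, were also listed at 0 in some libraries, so a 0 is given below only as listed.

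Zfp57 was by far the most abundant. It held 32.5% of the summed FPKM of the 172 genes, and the 10 most abundant together held 59.2%. The mean over all libraries ran from 1.83 to 2355 FPKM with a median of 12.2, against a median of 16.8 for all genes at the same level. The level rule was met in all 12 libraries by 74 genes and in exactly 3 by 11. It was met only in libraries of 1 genotype by 11 genes, namely Zfp3, Zfp513, Zfp710 and Zfp809 in WT and Zfp248, Zfp408, Zfp575, Zfp715, Zfp868, Zfp947 and Zfp954 in KO. These 11 entered through the group in which they were high and had to differ in some degree. Just inside the threshold, the third-highest library was at 5.07 for Zfp39, 5.09 for Zfp954 and 5.13 for Zfp809, and just outside it was at 4.99 for Zfp53, 4.98 for Zfp551 and 4.87 for Zfp606.

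Zfp57, at chr17:37001161-37010729, was at 1306, 1192 and 1083 FPKM in WT polysome libraries and at 1407, 1385 and 1382 in KO polysome libraries. It was at 2919.6, 3014 and 2990.4 FPKM in WT RNP and at 3856, 3965 and 3763 in KO RNP libraries. The RNP libraries were above the polysome libraries in each genotype, and within each pool the KO libraries were above the WT libraries. The polysome-minus-RNP difference was -1.32 (log2, SE 0.09) in WT and -1.47 (SE 0.06) in KO, with adjusted p of 4.63e-05 and 5.47e-07. Zfp57 rose in the KO RNP pool by 0.38 (SE 0.05, adjusted p = 0.000719), and its difference in the polysome pool was 0.23 (SE 0.10, adjusted p = 0.174).

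Zfp296, a zinc finger gene of pluripotent cells, was at 283, 462 and 379.8 FPKM in WT polysome and at 327, 362 and 374 in KO polysome libraries. It was at 886, 942 and 969 FPKM in WT RNP and at 695, 732 and 682 in KO RNP libraries, which do not overlap. It fell by 0.41 (SE 0.07, adjusted p = 0.00318) in the KO RNP pool, against a difference of -0.05 (SE 0.18, adjusted p = 0.873) in the polysome pool. Zfp58, a KRAB gene, rose in RNP by 0.56 (SE 0.12, adjusted p = 0.0126), and Zfp957 fell in both pools, by 1.13 (SE 0.26, adjusted p = 0.0296) and 0.85 (SE 0.13, adjusted p = 0.00223). The polysome call of Zfp957 was lost in 6 of 14 alternatives. Zfp655, Zfp108, Zfp750, Zfp212, Zfp592 and Zfp68 passed the test for genotype in neither pool, with differences from -0.30 to 0.33. For Zfp750 the deposited interval is far longer than the annotated gene and takes in Tbcd on the other strand, so its level may hold reads of both.

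**Figure D1:**
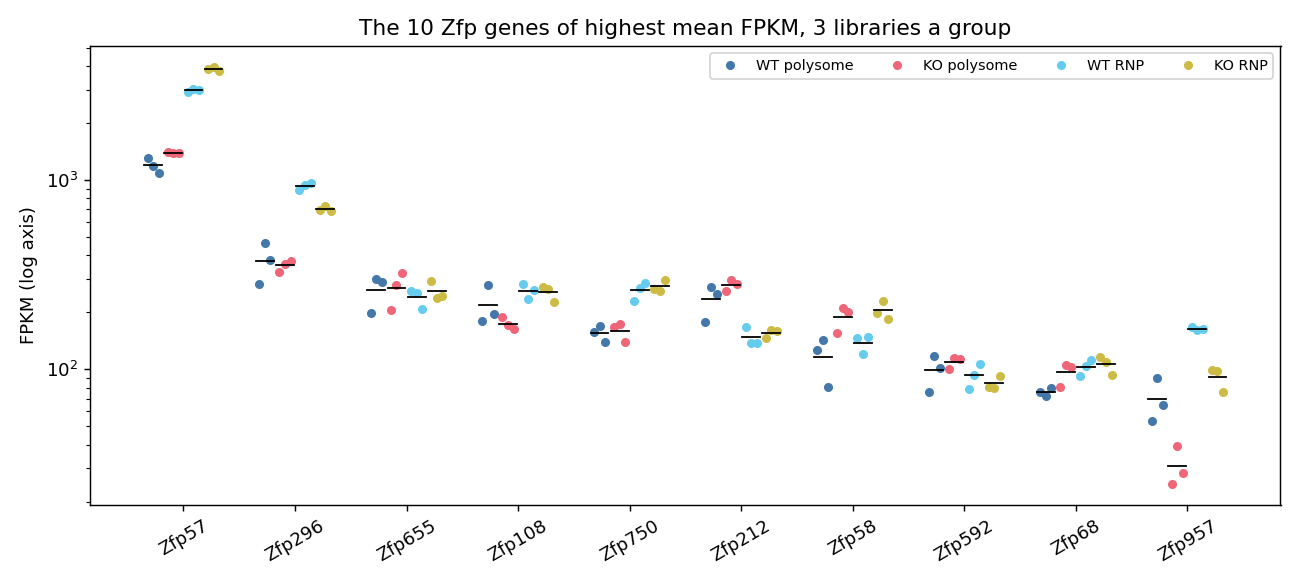
FPKM on a log axis of the 10 Zfp genes of highest mean level, with 3 libraries a group as points and group means as lines. Zfp57 stands above the others in every library, with RNP libraries at 2919.6 to 3965 and polysome libraries at 1083 to 1407.

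In the polysome pool, 20 of the 167 genes tested differed between KO and WT, 10 higher, with Zfp784 among them, and 10 lower. Of all genes tested 10.4% were called (5.64% higher and 4.73% lower), and 11.9% of all genes at the same level. The median difference was 0.02, against 0.10 for all genes tested. In the RNP pool, 40 of 170 genes differed, 19 higher and 21 lower. Against this stood 20.7% of all genes tested (10.5% higher and 10.2% lower) and 25% of all genes at the same level. Leaving out KO polysome replicate 1, 2 or 3 left 4, 5 and 5 genes called in polysome, and leaving out any 1 KO RNP library left 26 in RNP. With all libraries, the genes at level in both genotypes gave 18 called of 158 in polysome and 36 of 160 in RNP.

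Of the 166 genes tested in both pools, 11 were called in both and in the same direction, against 6.37% of all genes tested in both pools. Higher in KO were Zfp410, Zfp473, Zfp687, Zfp791 and Zfp956, and lower were Zfp3, Zfp51, Zfp319, Zfp524, Zfp830 and Zfp957. None was called in opposite directions. Of these 11 genes only Zfp956 kept both calls in every alternative. Among the others, the polysome call was lost in 10 of 14 alternatives for Zfp319, 9 for Zfp687 and 5 for Zfp791. The RNP call was lost in 8 of 14 for Zfp473 and in 4 each for Zfp51 and Zfp687. Another 9, with Zfp784 of the rule among them, were called in the polysome pool and not in the RNP pool. In the RNP pool and not in the polysome pool 29 were called, of which 1, Zfp947, was not tested in the polysome pool. Over all genes tested in both pools the shares were 4.13% and 15.2%. Replicates of the Zfp genes varied more in the polysome pool. The median SD (log2) was 0.69 in WT and 0.47 in KO polysome libraries, and 0.42 in WT and 0.27 in KO RNP libraries. The part of this spread in the counts of the pools was not tested.

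**Figure D2:**
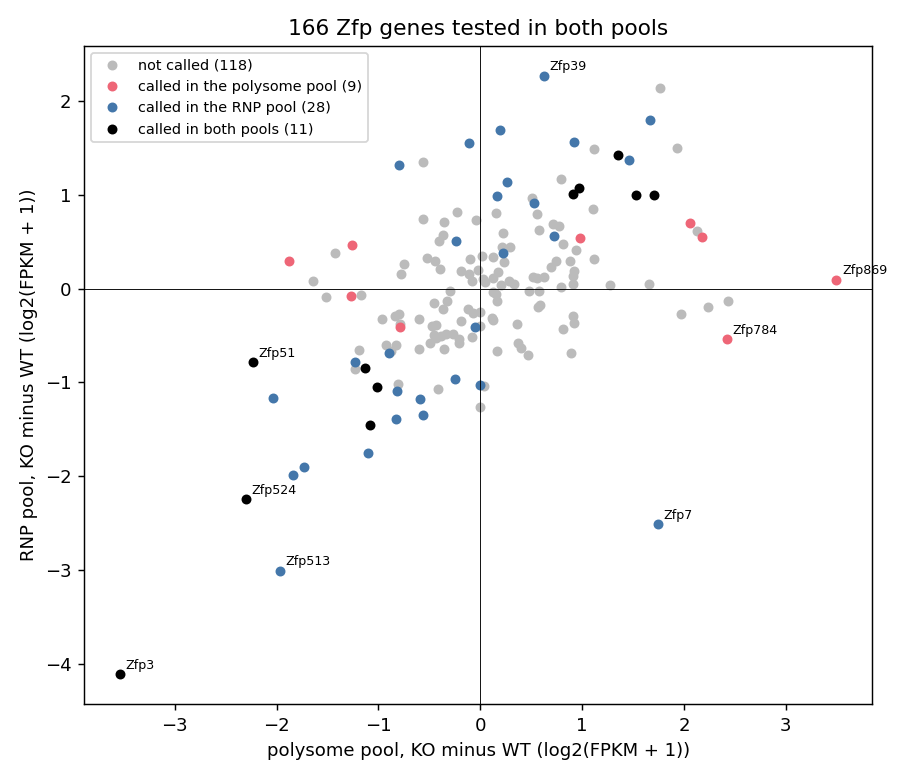
KO minus WT on the log2(FPKM + 1) scale in the polysome pool (horizontal) and the RNP pool (vertical) for the 166 Zfp genes tested in both, coloured by where they were called. The 11 genes called in both pools lie at the lower left and upper right, and the called genes at the lower right are Zfp7 and Zfp784.

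Zfp3, at chr11:70764445-70772928, had the largest fall in KO in both pools. It was at 14.7, 38.3 and 25.9 FPKM in WT polysome and at 0.0946, 4.86 and 0.647 in KO polysome libraries. In the RNP pool it was at 25.7, 36.9 and 26.7 in WT and at 1.62, 0.183 and 0.756 in KO. The genotypes did not overlap in either pool, and Zfp3 fell by 3.54 log2 units (SE 0.66, adjusted p = 0.0137) in polysome and fell by 4.11 (SE 0.36, adjusted p = 0.000137) in RNP. As Zfp3 reached the level rule only in WT libraries, these tests are not independent of its choice.

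Zfp513 was at 17.6, 25.5 and 35.7 FPKM in WT RNP and at 2.15, 2.48 and 2.19 in KO RNP libraries, and it fell by 3.01 (SE 0.31, adjusted p = 0.000313). In the WT polysome libraries it was at 0, 9.18 and 43.3, and its polysome difference of -1.97 (SE 1.17) did not pass the test. It too met the level rule only in WT libraries. Zfp524 did not have this restriction. It was at 23.0, 97.3 and 33.7 FPKM in WT polysome and 7.98, 6.40 and 9.18 in KO polysome libraries, and at 71.2, 104 and 85.3 in WT RNP and 9.23, 18.9 and 28.9 in KO RNP libraries. It fell by 2.31 (SE 0.49, adjusted p = 0.0219) in polysome and by 2.25 (SE 0.35, adjusted p = 0.00238) in RNP, with no overlap of genotypes. The polysome call was lost in 5 of 14 alternatives and the RNP call in none.

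Zfp51, a KRAB gene with 19 fingers, was at 71.4, 70.7 and 93.4 FPKM in WT polysome and at 7.86, 18.6 and 26.4 in KO polysome libraries. In RNP it was at 23.9, 32.1 and 31.4 in WT and at 15.0, 19.1 and 15.3 in KO. It fell by 2.23 (SE 0.39, adjusted p = 0.0111) in polysome and by 0.79 (SE 0.21, adjusted p = 0.0249) in RNP. WT polysome libraries exceeded WT RNP libraries by 1.40 (SE 0.21, adjusted p = 0.00365), whereas the KO difference was -0.04 (SE 0.38). The difference between genotypes in that ratio was -1.44 (SE 0.47) and did not pass the test (adjusted p = 0.247). Zfp830, which takes part in pre-mRNA splicing, also fell in both pools, by 1.01 (SE 0.24, adjusted p = 0.0345) and 1.05 (SE 0.18, adjusted p = 0.00364), and its polysome call was lost in 6 of 14 alternatives.

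Zfp956, in which no KRAB box was found, rose in both pools, in each of 14 alternatives. It was at 47.3, 32.2 and 42.8 FPKM in WT polysome, 104, 99.1 and 109 in KO polysome, 54.5, 55.4 and 46.1 in WT RNP and 134, 159 and 130.2 in KO RNP libraries. The rise was 1.35 (SE 0.19, adjusted p = 0.00528) in polysome and 1.42 (SE 0.14, adjusted p = 0.000199) in RNP. Its deposited interval also covers the overlapping gene Zfp783. Zfp410, known as an activator of the chromatin remodeller gene Chd4, was at 2.10, 3.14 and 7.55 FPKM in WT polysome and 14.6, 16.3 and 13.3 in KO polysome libraries. It was at 6.50, 5.27 and 6.52 in WT RNP and at 13.1, 16.5 and 10.3 in KO RNP libraries. It rose by 1.71 (SE 0.45, adjusted p = 0.0477) and 0.99 (SE 0.27, adjusted p = 0.0309). The polysome call was lost in 9 of 14 alternatives, among them those without any 1 KO polysome library, and the RNP call in 6 of 14. Chd4 itself did not pass the test, with differences of 0.38 (SE 0.33) and -0.09 (SE 0.22).

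Zfp646 was at 5.25, 2.50 and 4.57 FPKM in WT polysome and 16.5, 22.8 and 20.3 in KO polysome libraries, a rise of 2.06 (SE 0.38, adjusted p = 0.0125). Zfp869 was listed at 0 in all 3 WT polysome libraries and was at 12.7, 22.6 and 3.46 FPKM in KO polysome libraries. In RNP it was at 4.11, 4.45 and 10.3 in WT and at 6.15, 4.02 and 9.67 in KO, where the genotypes overlapped. Zfp715 was likewise listed at 0 in all WT polysome libraries, against 1.21, 5.83 and 5.17 in KO, and met the level rule only in KO libraries. Both passed the test in polysome (adjusted p of 0.0121 and 0.036), and the call of Zfp715 was lost in 7 of 10 alternatives. Both were tested only because their KO libraries passed the filter of FPKM 1, so these tests are not independent of that filter. No fold is given against a group listed at 0.

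**Figure D3:**
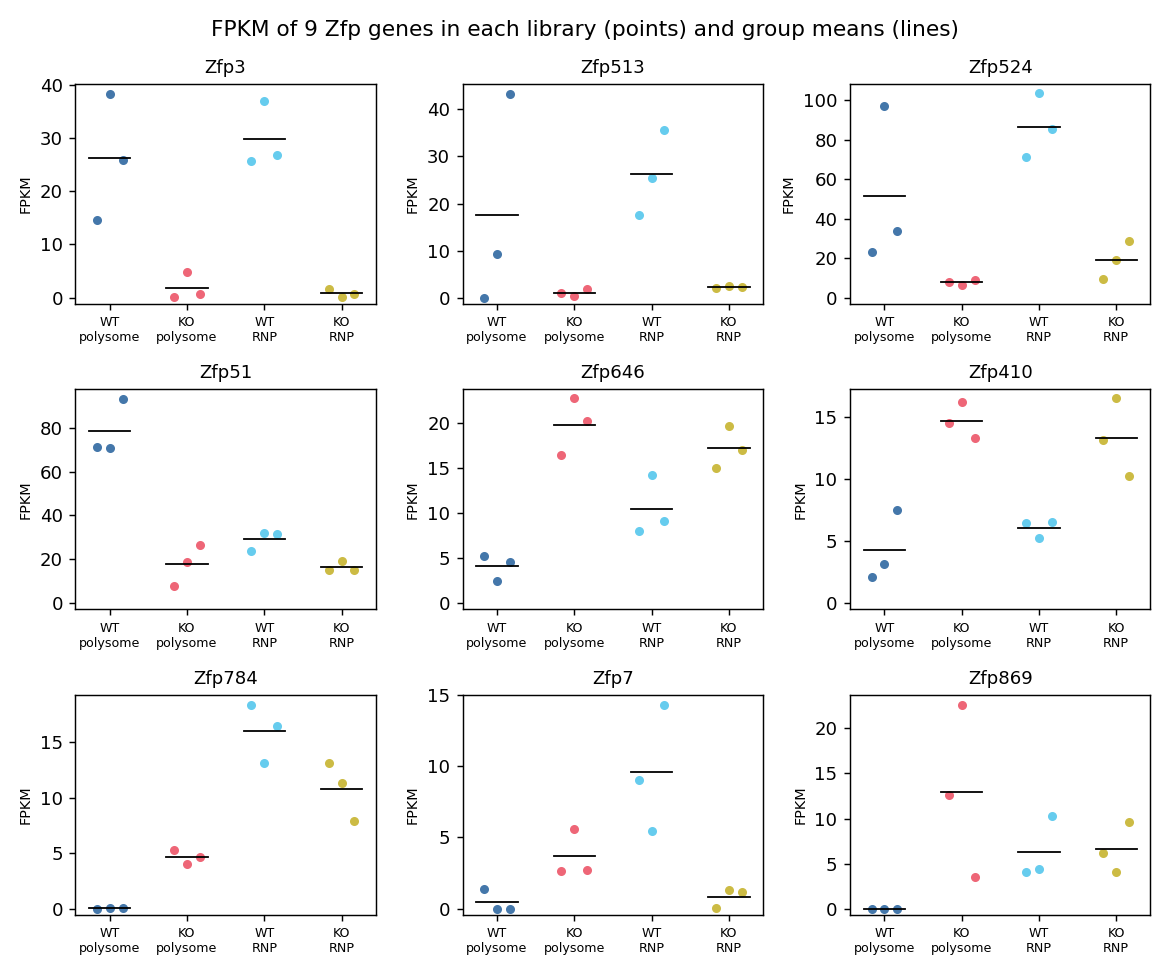
FPKM of 9 Zfp genes in each library as points, with group means as lines and 3 libraries a group. Zfp3, Zfp513 and Zfp524 are lower in KO RNP than in any WT RNP library, while Zfp784, Zfp7 and Zfp869 differ between pools.

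In the RNP pool, KRAB genes were called higher in 13 and lower in 7 of 95 genes, and genes without a KRAB box higher in 5 and lower in 14 of 74. The medians were 0.12 and -0.27, against 0.05 for all genes at the same level. In polysome the counts were 5 higher and 3 lower of 92 KRAB genes, and 5 higher and 7 lower of 74 others, with medians of 0.16 and -0.10. Of all genes tested, 10.5% were called higher and 10.2% lower in RNP, and 5.64% and 4.73% in polysome. These counts describe the 2 classes and were not tested against each other. They include genes that met the level rule in 1 genotype only. In RNP these were Zfp248 and Zfp947 among KRAB genes called higher, and Zfp3 and Zfp513 among the others called lower. In polysome they were Zfp715 among KRAB genes called higher, and Zfp3 among the others called lower. Among KRAB genes that rose in RNP was Zfp445, which acts beside Zfp57 in keeping imprints. It was at 5.65, 2.56 and 1.87 FPKM in WT RNP and at 13, 9.95 and 10.5 in KO RNP libraries, a rise of 1.57 (SE 0.37, adjusted p = 0.0161). Zfp39, Zfp947, Zfp248, Zfp260 and Zfp74 rose there by 2.27, 1.97, 1.80, 1.70 and 1.55. Zfp260 has no KRAB box, and Zfp947 and Zfp248 met the level rule only in KO libraries. Zfp39 passed the filter of FPKM 1 in RNP only through its KO libraries, so its test is not independent of that filter. Zfp7, Zfp593 and Zfp688 fell there by 2.51, 1.98 and 1.91, and only Zfp593 of these lacks a KRAB box. The RNP calls of Zfp947, Zfp74, Zfp593 and Zfp688 were lost in 9, 7, 6 and 5 of 14 alternatives, and that of Zfp445 in 3.

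Most genes chosen for a known role were called in neither pool, and 49 of all 172 Zfp genes were called in at least 1 pool. Zfp541, a chromatin factor of the germ line, was at 17.3, 17.2 and 17.2 FPKM in WT RNP and at 11.2, 8.32 and 6.11 in KO RNP libraries, and fell by 0.97 (SE 0.26, adjusted p = 0.0287). Zfp706 rose in RNP by 0.51 (SE 0.15, adjusted p = 0.0368). Zfp708, a KRAB repressor of retrotransposons, rose there by 0.92 (SE 0.25, adjusted p = 0.0316). These 3 calls were lost in 6, 8 and 5 of 14 alternatives. Zfp932 and Zfp809, also KRAB repressors of retroelements, did not pass the test in either pool, and neither did Zfp598, a ubiquitin ligase that senses collided ribosomes, or Zfp207, which takes part in spindle assembly. Also called in neither pool were Zfp91, Zfp106, Zfp110, Zfp131, Zfp143, Zfp148, Zfp217, Zfp277, Zfp281, Zfp318, Zfp330, Zfp423, Zfp451, Zfp618, Zfp639 and Zfp819. The partners of KRAB proteins were 17 tested genes, of which 2 rose in polysome, Atf7ip by 1.14 (SE 0.19, adjusted p = 0.00952) and Uhrf1 by 0.73 (SE 0.11, adjusted p = 0.00768), and none fell. In RNP 2 rose and 2 fell. These shares of 17 lie near the 10.4% and 20.7% of all genes tested. In polysome 15 of the 17 lay above 0, with a median of 0.60, against 55.7% and 0.10 for all genes tested. In RNP 7 lay above 0, with a median of -0.09, against 53.3% and 0.05. For the ratio 16 lay above 0, with a median of 0.54, against 52.4% and 0.04, and none was called. The direction of the list as a whole was not tested. Trim28 was at 5.53, 8.76 and 9.46 FPKM in WT polysome and at 22.2, 18.4 and 15.0 in KO polysome libraries, with a difference of 1.14 (SE 0.34) that did not pass the test (adjusted p = 0.0675). Setdb1 differed by 0.33 (SE 0.24, adjusted p = 0.431) in polysome and by -0.11 (SE 0.19, adjusted p = 0.737) in RNP.

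The pools were compared within each genotype. In WT, 22 of the 164 genes tested differed, 6 higher in polysome and 16 higher in RNP. Over all genes tested 14.7% were called (7.97% higher in polysome and 6.72% lower), and 17.7% of all genes at the same level. In KO, 37 of 170 genes differed, 11 higher in polysome and 26 lower, against 29.2% of all genes tested (15.5% and 13.8%) and 35.9% at the same level. The median polysome-minus-RNP difference was -0.40 in WT and -0.26 in KO, against -0.07 and -0.04 for all genes at the same level. Above 0 were 31.7% and 33.5% of the Zfp genes, against 47.0% and 47.9%. Some other zinc finger families of the same level also had negative medians. They were -0.72 in WT and -0.19 in KO for 22 Zbtb genes, and -0.44 and -0.14 for 14 Zscan and Zkscan genes. For the Klf and Sp genes they were -1.0 and -0.41. The 10 Zfp genes with a letter after the number went the other way, with medians of 0.061 in WT and 0.059 in KO. The Zfp median was -0.20 in WT without WT polysome replicate 3 and -0.15 in KO without KO polysome replicate 1, and it was -0.12 in WT and -0.19 in KO for the 74 genes at level in all 12 libraries. The median was negative in genes with and without a KRAB box, at -0.29 and -0.50 in WT and at -0.18 and -0.32 in KO. FPKM is scaled within each library, so these are shares of each pool and not amounts of RNA. Without any 1 WT RNP library 9 or 10 genes were called in WT, and without any 1 KO RNP library 22 to 24 in KO.

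**Figure D4:**
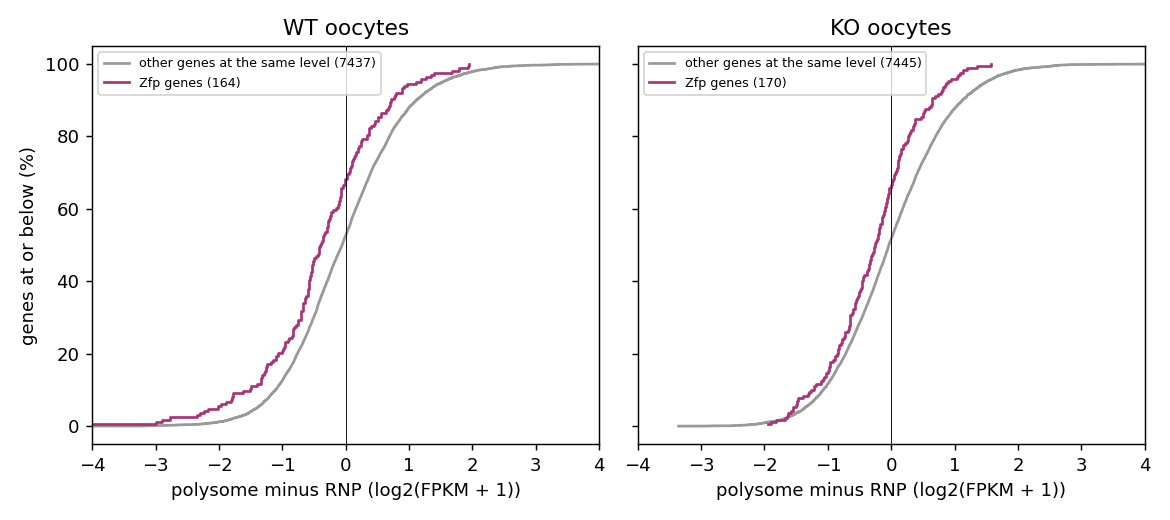
Cumulative share of genes by polysome-minus-RNP difference on the log2(FPKM + 1) scale, in WT (left) and KO (right), for the Zfp genes and other genes at the same level. The Zfp curve lies to the left, with medians of -0.40 in WT and -0.26 in KO.

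Of the genes shifted towards RNP in WT, after Zfp784, Zfp93 differed by -2.99 and Zfp7 by -2.90, and Zfp869 was listed at 0 in WT polysome. In WT, Zfp93 passed the filter of FPKM 1 only through its RNP libraries. Those most shifted towards polysome were Zfp943 by 1.92, Zfp51 by 1.40, Zfp345 by 1.35 and Zfp942 by 1.27, all with a KRAB box. Zfp942 and Zfp943 belong to a run of 8 KRAB genes at chr17:21733722-22456689. In KO the lowest were Zfp414 by -1.90, Zfp383 by -1.82, Zfp708 by -1.68 and Zfp93 by -1.64, and the highest Zfp707 by 1.57, Zfp7 by 1.36, Zfp942 by 1.20 and Zfp97 by 1.14, the last uncertain because of Zfp960. In KO the calls of Zfp7, Zfp93 and Zfp707 were lost in 8 of 13, 7 of 14 and 5 of 14 alternatives, and the Zfp7 difference ran from 0.56 to 2.44. In WT those of Zfp942 and Zfp943 were lost in 6 and 4 of 14.

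The difference between genotypes in the polysome-to-RNP ratio was called for Zfp7, which was higher in KO, and for none of the other genes beside Zfp784, which the rule named and which is therefore left out of this count. Over all genes tested 0.237% were called (0.0822% higher and 0.155% lower), and 0.338% of all genes at the same level. Zfp784, at chr7:5034444-5038446, was listed at 0 in 1 WT polysome library and was at 0.0807 and 0.0651 FPKM in the others, and at 5.26, 4.02 and 4.69 in KO polysome libraries. It was at 18.3, 13.1 and 16.4 FPKM in WT RNP and at 13.1, 11.3 and 7.91 in KO RNP libraries. In polysome the genotypes did not overlap, and in RNP the highest KO value equalled the lowest WT value to 3 digits. The fitted change in ratio was 2.97 (SE 0.45), given with no test because the gene was named in the rule.

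Zfp7 was at 1.39, 0 and 0 FPKM in WT polysome and at 2.67, 5.59 and 2.71 in KO polysome libraries. It was at 9.03, 5.44 and 14.3 FPKM in WT RNP and at 0.0510, 1.32 and 1.18 in KO RNP libraries. It was thus higher in KO in polysome and lower in KO in RNP, with no overlap in either pool, and the change in ratio was 4.26 (SE 0.72, adjusted p = 0.0288). Zfp7 reached the level of the rule only in WT RNP and KO polysome libraries, so its tests are not independent of its choice. The call of Zfp7 was lost in 20 of 27 alternatives, among them those without any 1 RNP library, any 1 KO polysome library or WT polysome replicate 2 and the one with a replicate block, with changes of 1.94 to 7.64 over all of them. The fitted change of Zfp784 ran from 1.35 to 5.62 over the same alternatives. Zfp277, Zfp345 and Zfp706 also had genotypes that did not overlap and lay in opposite directions in the pools, but their changes in ratio, -0.73, -0.85 and -0.75, did not pass the test (adjusted p of 0.249, 0.329 and 0.205). Zfp383, the gene of lowest p after Zfp784 and Zfp7, differed by -1.73 (SE 0.37, adjusted p = 0.0877).

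Zfp784 lies in a run of 5 genes without KRAB boxes at chr7:4915215-5053723, with Zfp628, Zfp524, Zfp865 and Zfp580. In the GENCODE annotation Zfp865 overlaps Zfp784 on the other strand, while their deposited intervals do not overlap (Zfp865 at chr7:5020374-5033223). It was at 6.79, 6.80 and 8.64 FPKM in WT polysome and at 0.683, 1.43 and 1.87 in KO polysome libraries, a fall of 1.88 (SE 0.43, adjusted p = 0.0295), while Zfp784 was higher in KO there. The Zfp865 call was lost in 8 of 14 alternatives, with every library left out and with a replicate block, and the change ran from -2.49 to -0.97. In RNP Zfp865 was at 3.72, 4.26 and 3.61 in WT and at 3.55, 3.91 and 8.51 in KO, which overlap. Reads from the end of the longer annotated Zfp865 would fall in the deposited interval of Zfp784 and may count towards Zfp784. Their part in these values was not tested. In all, 10 runs of at least 3 genes with gaps of at most 250 kb held 55 of the 172 genes. Their median polysome differences between genotypes ran from -1.65 in the run of Zfp784 to 1.12 in the run of Zfp956 at chr6:47835659-48048114, and their RNP medians from -0.78 to 0.58.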

How the data were processed

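RNA of polysome and RNP pools was measured in 12 libraries, 3 a group. The authors aligned the reads with TopHat2 2.0.13 against mm10, and FPKM of each gene symbol was deposited from Cufflinks 2.2.1; the annotation release is not given in the sources used here, and the sources differ on the top sucrose concentration and library kit. The deposited Cuffdiff log2 changes, p-values and q-values were not used. FPKM holds no counts, so each library's depth is an estimate, taken from the spacing of low FPKM values, where a peak at 1 fragment was required.

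Differences were fitted with limma 3.58.1 in R 4.3.3 on log2(FPKM + 1), with an intensity trend, on genes that reached FPKM 1 in 3 or more of the compared libraries, with Benjamini-Hochberg adjustment over all genes at 0.05. All tests were two-sided. Such differences understate changes of low genes. The ratio was the interaction of genotype and pool. The script was tested on simulated data. Coding sequences came from GENCODE M21, and KRAB boxes from a pyhmmer profile. Named genes were Zfp784, the 10 highest, the 6 largest called changes each way (4 between pools), all called in the ratio, genes of known role and those beside the threshold. The members and lists were chosen with earlier results of these data known. Alternatives were other pseudocounts, filters, scalings, a replicate block, no trend and each library left out.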

Additional observations from a re-analysis of the deposited data

Results flagged for a closer look

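The difference between KO and WT itself differed between the polysome and RNP pools for Zfp7, by the interaction of genotype and pool, with a change in ratio of 4.26. Zfp7 reached the level of the rule only in WT RNP and KO polysome libraries, so this test is not independent of its choice. For Zfp784 every KO library lay above the WT libraries in polysome and below them in RNP, with a fitted change in ratio of 2.97. In RNP the gap was very small, as the highest KO value equalled the lowest WT value to 3 digits. That difference was not tested, because the gene was named in the rule. Both had low levels in WT polysome libraries, where 2 of the 3 values of Zfp7 and 1 of the 3 of Zfp784 were listed at 0.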

How the results depend on the processing

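Same-numbered libraries did not deviate together (correlations of -0.0283 to 0.0321), and the replicate numbers are shared only as numbers; at most 1 of 3 libraries correlated best with its own number. All counts here include Zfp784, named in the rule, where it was called, and the count for the ratio is 2 in the report's setting. With a replicate block, the Zfp genes called were 12 in polysome, and 0 for the ratio (0 also with the block within genotype, added after seeing the data); the block moved no other count by over 1.5 times. With no filter on low values the counts were 9 in polysome, 26 in RNP, 1 for the ratio and 13 between WT pools. With no intensity trend they were 10 in polysome, 26 in RNP, 1 for the ratio and 9 between WT pools. With a pseudocount of 5 the ratio count was 1. The cause was not tested. Leaving out 1 library gave 4 to 15 in polysome (4, 5 and 5 without KO polysome replicates 1, 2 and 3), 26 to 40 in RNP (26 without any 1 KO RNP library), 0 to 2 for the ratio (also when both pools of a replicate were left out, added after seeing the data), 9 to 22 between WT pools (10, 9 and 9 without WT RNP replicates 1, 2 and 3) and 22 to 41 between KO pools (22, 22 and 24 without KO RNP replicates 1, 2 and 3). The median member level was 11.8 to 12.8 FPKM. None of the 42 named changes turned direction, and 21 stayed past the threshold in every alternative that tested them. Depth limits genes of a few FPKM most.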
